A study of Mus musculus with 12 samples.

Results

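Skeletal muscle transcripts were followed through RNA of mouse tongue epithelium, as a list of 32 genes of the contractile fibre among the 49164 genes with counts. The list was given by gene symbol, and each of the 32 symbols matched 1 row of the count table. The 12 samples came from Langerin-DTR mice, in which the human diphtheria toxin receptor is made by cells that express langerin, here the Langerhans cells of the epithelium. Both groups carried this allele. In the DT group (n = 6) mice received diphtheria toxin from an age of 2 weeks, with 2 injections per week that went on into adulthood, and in the PBS group (n = 6) phosphate-buffered saline on the same schedule. The tongue was distended with dispase, the epithelial sheet was lifted off with forceps, and the sheet was minced and digested before RNA extraction, so that the muscle of the tongue was not part of the intended tissue. The labels do not give strain, sex or age at collection in adulthood, nor whether each sample was 1 mouse.

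The tongue is largely striated muscle. A muscle fibre contracts when calcium is released from the sarcoplasmic reticulum and binds troponin on the actin filament, which lets myosin heads pull on actin. Fast and slow fibres use different genes for myosin, troponin and the calcium pump, and rodent tongue is known for a high share of fast fibres. The genes of this machinery are among the most abundant messages of a muscle fibre, and most of them are not known as products of keratinocytes.

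Total counts per sample ran from 21226436 to 34333949 (exact permutation p = 0.0909 for DT against PBS, two-sided), and a count of 3, taken as the floor of detection, stood for 0.0813 to 0.143 CPM. CPM stands for counts per 1000000 counts of a library, here after scaling of the libraries by the trimmed mean of M values (TMM). Cd207, which encodes langerin, had 53 to 92 counts in each PBS sample and 0 to 2 in each DT sample, so it went with the labels. Keratinocyte markers summed to 137100 to 173600 CPM in PBS and 116500 to 148000 CPM in DT. Against that, the 32 muscle genes were a trace: they took 0.00159 to 0.0143% of the counts in PBS and 0.00216 to 0.00756% in DT.

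Promoters of 4 of the genes are shown as examples of both kinds described below: Acta1, Ckm and Myh4 varied together from sample to sample, while Ryr1 stayed level. Each is the 250 bases before the transcription start, 5′ to 3′ on the strand of the gene, from RefSeq for build GRCm38.p6, which is not the build of the counts. The windows are chr8:123894776-123895025 on the minus strand for Acta1, chr7:19410844-19411093 on the plus strand for Ckm, chr11:67237562-67237811 on the plus strand for Myh4 and chr7:29125152-29125401 on the minus strand for Ryr1. Capitals mark CAGCTG, a form of the E-box that factors of the MyoD family bind.
Acta1: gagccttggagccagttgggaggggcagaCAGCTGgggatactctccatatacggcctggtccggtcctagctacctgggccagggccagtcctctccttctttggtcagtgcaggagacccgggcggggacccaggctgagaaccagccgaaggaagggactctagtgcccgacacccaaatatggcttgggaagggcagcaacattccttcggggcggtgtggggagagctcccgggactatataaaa
Ckm: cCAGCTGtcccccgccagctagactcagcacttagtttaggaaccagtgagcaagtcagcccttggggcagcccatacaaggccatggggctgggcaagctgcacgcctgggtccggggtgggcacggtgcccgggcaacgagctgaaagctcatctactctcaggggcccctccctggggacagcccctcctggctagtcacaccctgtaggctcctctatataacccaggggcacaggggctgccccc
Myh4: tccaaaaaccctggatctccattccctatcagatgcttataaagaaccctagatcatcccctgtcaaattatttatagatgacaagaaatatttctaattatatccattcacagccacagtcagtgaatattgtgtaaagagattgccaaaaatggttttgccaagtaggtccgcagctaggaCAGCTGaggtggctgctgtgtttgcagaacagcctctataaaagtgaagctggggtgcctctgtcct
Ryr1: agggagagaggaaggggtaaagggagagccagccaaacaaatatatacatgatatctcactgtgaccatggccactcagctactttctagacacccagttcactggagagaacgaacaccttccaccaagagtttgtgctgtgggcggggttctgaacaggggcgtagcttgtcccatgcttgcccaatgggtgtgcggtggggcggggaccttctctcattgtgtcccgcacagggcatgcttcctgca
The motif, which reads the same on both strands, began 221 bases before the start in Acta1, 249 in Ckm and 67 in Myh4, and was not in the Ryr1 window. Of the 24 muscle genes with a promoter in the table, 13 held CAGCTG in these 250 bases (54.2%), against 13.0% of all 32851 promoters. By kind, it was in 2 of 4 genes of the group set apart below by small ratios of highest to lowest sample, Mylpf and Tnni1. It was in 11 of 20 of the other genes, which include genes too rare to test. The 4 promoters shown thus do not stand for a difference between the kinds. TATAAA on either strand was in 6 of the 24 and in 12.4% of all promoters, and the MEF2 motif, named for the MEF2 family of muscle regulators, was in 4 of the 24 and in 2.92% of all. The CArG box, which serum response factor binds, was in 2 of the 24, Acta1 and Myh4, against 1.47% of all. These matches describe the letters of the window and not a bound site.

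The summed level of the 32 genes differed 8.10-fold between the highest and the lowest of the 12 samples. In PBS it was 144, 43.5, 103, 49.2, 17.8 and 23.2 CPM in PBS 1 to PBS 6, and in DT 22.3, 36.9, 27.97, 24.2, 43.1 and 70.3 CPM in DT 1 to DT 6. PBS 1 and PBS 3 stood highest, DT 6 came next, PBS 5 was lowest, and the range of DT lay within that of PBS. The PBS mean was 63.4 ± 49.6 CPM and the DT mean 37.5 ± 17.9 CPM (SD, n = 6 each), with a log2 ratio of the means of -0.76. As this is a score over the list, it is given without a test. In such bulk samples, fewer cells of a type and less RNA per cell cannot be told apart.

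**Figure D1:**
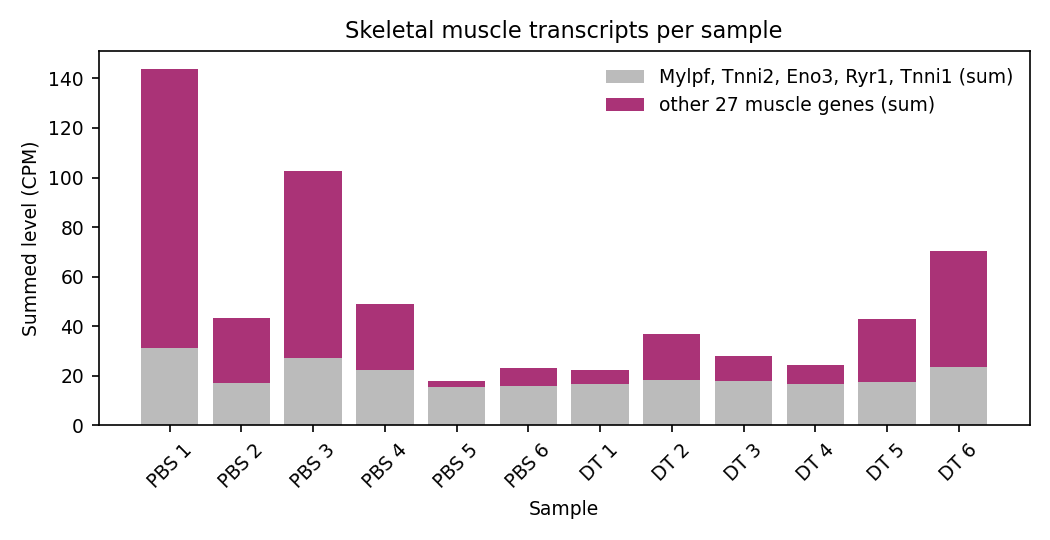
Stacked bars give the summed level (CPM) of the skeletal muscle genes in each sample, grey for Mylpf, Tnni2, Eno3, Ryr1 and Tnni1 and purple for the other 27 genes. The grey part runs from 15.4 to 31.2 CPM over the 12 samples, the purple part from 2.37 to 113 CPM.

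The genes fell into kinds by how far they swung between samples. Among the 19 genes abundant enough to test, Mylpf, Tnni2, Eno3, Ryr1 and Tnni1 had the smallest ratios of highest to lowest sample, 1.39 to 4.18. The other 27 genes together ran from 2.37 CPM in PBS 5 to 113 CPM in PBS 1, a ratio of 47.6, while these 5 together ran from 15.4 to 31.2 CPM, a ratio of 2.03. In PBS 5 the 27 genes had 62 counts in all, against 403 for the 5, and in PBS 1 they had 2370 against 657. The division was made after the values were seen and is a description only.

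Of the 14 swinging genes that were tested, PBS 1 was the highest sample for 14 and PBS 5 the lowest for 12. PBS 3 was among the 3 highest samples for 14 of them and DT 6 for 13, with PBS 2 in its place for Myh1. Their SD within groups was 0.55 to 1.55 on the log2 (CPM + 0.5) scale, against a median of 0.157 over all 14231 genes tested. Each of the 14 lay at or above the 99.4th percentile of that spread. Ryr1 and Tnni1 lay at the 29.4th and 27.5th percentiles, so they varied less than most genes. Eno3 and Mylpf had an SD of 0.31 and 0.37, below the 14 but at the 93.9th and 97.4th percentiles of all genes tested. Tnni2 at 0.58, the 99.55th percentile, lay above the lowest of the 14, Actn2 at 0.55.

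**Figure D2:**
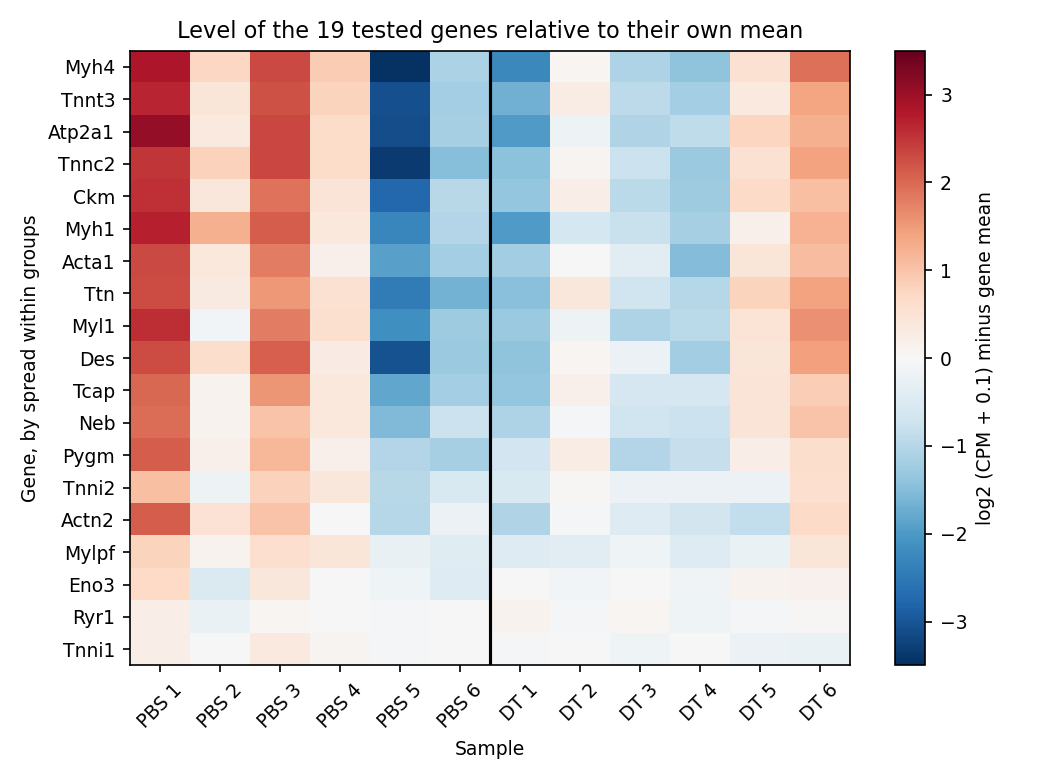
Colour gives log2 (CPM + 0.1) minus the mean of each gene over the 12 samples, for the 19 tested genes (rows, ordered by their spread within groups) in each sample (columns, PBS left of the line). PBS 1, PBS 3 and DT 6 are red and PBS 5 is blue over most of the upper rows, while Eno3, Ryr1 and Tnni1 at the bottom are near white.

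The thin filament was represented by Acta1, the actin of skeletal muscle. In PBS its lowest, median and highest levels were 0.535, 2.79 and 11.7 CPM, and in DT 0.735, 2.011 and 4.88 CPM. The groups overlapped, with both the highest and the lowest sample in PBS, a 21.8-fold span. Actin genes share long stretches of sequence, so a part of the Acta1 count may belong to other actins.

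Thick filament genes were mainly those of fast fibres. Myh4, the myosin heavy chain of fast IIB fibres, stood at 0.115, 4.03 and 16.7 CPM (lowest, median, highest) in PBS and 0.391, 1.68 and 8.86 CPM in DT. Myh1, the IIX heavy chain, stood at 0.153, 2.15 and 8.03 CPM in PBS and 0.213, 0.661 and 2.76 CPM in DT. Myh2, the IIA heavy chain, had 11 counts over the 12 samples against 1459 for Myh4, and it was too rare to test. Their exons are of like length (6.02 kb for Myh4, 6.35 for Myh1 and 7.14 for Myh2), so the order Myh4, Myh1, Myh2 also held per kilobase (0.748, 0.319 and 0.00507 CPM per kb). The 3 genes are near copies of each other, and reads that they share can be lost or misassigned. Myh7, the slow heavy chain and not one of the 32, had 4 to 18 counts in each sample and no such swing, with 9 in PBS 1 and 9 in PBS 5.

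The mix of Myh4 and Myh1 is a measure that does not scale with the amount of muscle RNA in a sample. Myh4 made up 67.6% of the counts of both genes in PBS 1 (95% Wilson interval 63.4 to 71.4%), 68.4% in PBS 3 (63.9 to 72.6%) and 76.2% in DT 6 (72.0 to 80.0%), the samples with the most counts. The mean share was 62.7 ± 11.1% in PBS and 69.2 ± 6.66% in DT, a difference of 6.55 percentage points (two-sided exact permutation p = 0.258, n = 6 and 6; a test added after the values were seen). PBS 5 rested on 7 counts and had 42.9% (15.8 to 75.0%). Without it the difference was 2.58 points (exact permutation p = 0.515). These intervals and the floors cover counting error only.

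**Figure D3:**
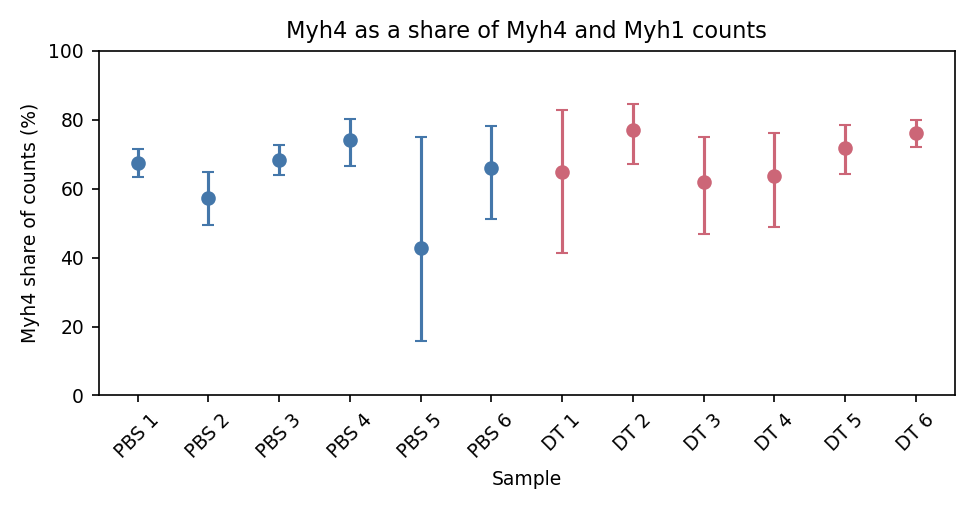
Points give Myh4 as a percentage of Myh4 and Myh1 counts in each sample, with 95% Wilson intervals, PBS in blue and DT in red. Shares run from 42.9 to 74.1% in PBS and from 61.9 to 77.0% in DT, and the interval of PBS 5, with 7 counts, is the widest.

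The light chains went different ways. Myl1, an essential light chain of fast muscle, followed the heavy chains at 0.115, 1.05 and 5.66 CPM in PBS and 0.284, 0.566 and 2.79 CPM in DT. Mylpf, the regulatory light chain of fast muscle, kept a base level: it stood at 2.61, 4.33 and 6.18 CPM in PBS and 2.56, 2.89 and 4.82 CPM in DT. In PBS 5, where Myl1 had 3 counts, Mylpf had 78. The myosin-binding proteins Mybpc1 and Mybpc2, which brace the thick filament, were too rare to test at 122 and 31 counts in all.

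Among fast troponins, Tnnt3 and Tnnc2 swung and Tnni2 kept a base level. Tnnt3, which anchors the complex to tropomyosin, stood at 0.191, 3.69 and 15.7 CPM in PBS and 0.676, 2.02 and 6.31 CPM in DT. Tnnc2, the calcium sensor, stood at 0.0382, 2.25 and 7.94 CPM in PBS and 0.427, 1.07 and 3.66 CPM in DT. Tnni2, the inhibitory subunit, never dropped below 2.75 CPM and reached 11.5 CPM in PBS 1. In PBS 5 the counts were 5 for Tnnt3, 1 for Tnnc2 and 72 for Tnni2, so the subunits of the complex were not in 1 ratio over the samples. Tnni2 also had the highest mean level per kilobase of exon among the 32 genes, 4.00 CPM per kb, next to 3.51 for Mylpf and 2.97 for Tnnc2.

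Slow troponins did not behave as a set. Tnnt1 had 6 counts in all, 2 each in PBS 1, PBS 3 and DT 6. Tnnc1 had 16 counts, of which 0 were in PBS 1 and PBS 3, and it overlaps Nisch, a far more abundant gene of the other strand, in the annotation at hand. Tnni1 was present in each sample with 60 to 95 counts, and stood at 2.60, 2.78 and 3.44 CPM in PBS and 2.28, 2.46 and 2.70 CPM in DT. All 6 DT values lay below the PBS median, and the groups overlapped.

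Genes of calcium release and uptake showed both kinds within a single pathway. Atp2a1, the calcium pump of fast fibres, stood at 0.0764, 2.03 and 12.6 CPM in PBS and 0.284, 0.967 and 3.44 CPM in DT. Ryr1, the channel that releases the stored calcium, stood at 3.68, 4.40 and 5.13 CPM in PBS and 3.90, 4.31 and 4.73 CPM in DT. In PBS 5 the counts were 2 for Atp2a1 and 110 for Ryr1, and in PBS 1 they were 264 and 108. Casq1, which stores calcium, Cacna1s, the voltage sensor, Pvalb, a soluble calcium buffer, and Sln, which regulates the pump, had 30, 31, 83 and 44 counts in all and were not tested. Pvalb had 19 counts in PBS 1, 26 in PBS 3 and 0 in PBS 5. Casq1 had 25 counts in PBS and 5 in DT, with all 6 DT values below the PBS median, as for Mybpc2 and Tnni1. Its counts were 0 in PBS 5, 1 in PBS 6 and 0 or 1 in each DT sample, so the groups overlapped below the floor of 3.

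Enzymes of fuel use split as well. Ckm, the muscle creatine kinase, stood at 0.115, 1.83 and 8.46 CPM in PBS and 0.462, 1.14 and 2.93 CPM in DT. Pygm, which breaks down glycogen, stood at 0.203, 0.658 and 2.81 CPM in PBS and 0.232, 0.503 and 0.921 CPM in DT. Eno3, the muscle form of the glycolytic enzyme enolase, had a far narrower range, 2.24, 3.01 and 5.28 CPM in PBS and 2.91, 3.17 and 3.52 CPM in DT.

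Scaffold and Z-disc genes swung with the filaments. Ttn, the giant spring of the sarcomere, stood at 0.115, 1.47 and 5.61 CPM in PBS and 0.320, 1.03 and 2.98 CPM in DT. Neb, the ruler of the thin filament, ran from 0.153 to 2.76 CPM, and Tcap, which caps titin at the Z-disc, from 0.0764 to 2.38 CPM over the 12 samples. Des, the intermediate filament that links the Z-discs, had 83 counts in PBS 1, 91 in PBS 3 and 0 in PBS 5, where a count of 0 allows up to 0.115 CPM. Actn2, which crosslinks actin at the Z-disc, ran from 0.142 to 2.09 CPM. Its relative Actn3, of fast fibres, had 26 counts in all, Myoz1 56, Myot 62 and the ubiquitin ligase gene Trim63 21, and none of these 4 was tested.

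Pairs of genes put numbers on the shared swing. Of the 8 pairs listed, 6 had a mean of at least 10 counts for both genes. Tnnt3 with Tnnt1 and Acta1 with Myh11 did not. Acta1 and Ckm had a Pearson r of 0.986 and a Spearman rho of 0.986 over the 12 samples (permutation p = 1e-05 for both, the smallest that 100000 resamples can give; adjusted p = 2e-05 over 6 pairs). Myh4 and Myh1 had an r of 0.965 and a rho of 0.979, and Ckm and Des an r of 0.979 and a rho of 0.972, with the same permutation p values. Without the 2 samples farthest from the median these were 0.966 (without PBS 1 and PBS 3), 0.950 and 0.964 (without PBS 1 and PBS 5 for both; permutation p = 2e-05 for all 3). They also held inside each group, with r of 0.995 in PBS and 0.955 in DT for Acta1 and Ckm.

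Mylpf, a gene with a base level, followed Acta1 less closely than Ckm did. With the sum of the other muscle genes of the list, Pearson r over the 12 samples was 0.902 for Mylpf and 0.947 for Tnni2. It was 0.901 for Actn2, one of the swinging genes, and 0.745 for Eno3, 0.506 for Tnni1 and 0.405 for Ryr1. Acta1 and Mylpf had an r of 0.883 and a rho of 0.853 (permutation p = 0.00015 and p = 0.00083, adjusted p = 0.000225 and p = 0.00125), and r was 0.741 without PBS 1 and PBS 3 (permutation p = 0.0149). Col1a1 and Hba-a1, the only markers of other cell types in the pairs computed, gave no relation with Acta1 that passed the test. Acta1 with Col1a1, a collagen of fibroblasts, had an r of 0.415 and a rho of 0.203 (permutation p = 0.179 and p = 0.531, adjusted p = 0.215 and p = 0.635), and r was -0.11 without PBS 1 and PBS 3 (permutation p = 0.75). Acta1 with Hba-a1, a haemoglobin gene of blood, had an r of -0.07 and a rho of -0.15 (permutation p = 0.815 and p = 0.635, adjusted p = 0.815 and p = 0.635), and r was -0.26 without those 2 samples (permutation p = 0.464).

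**Figure D4:**
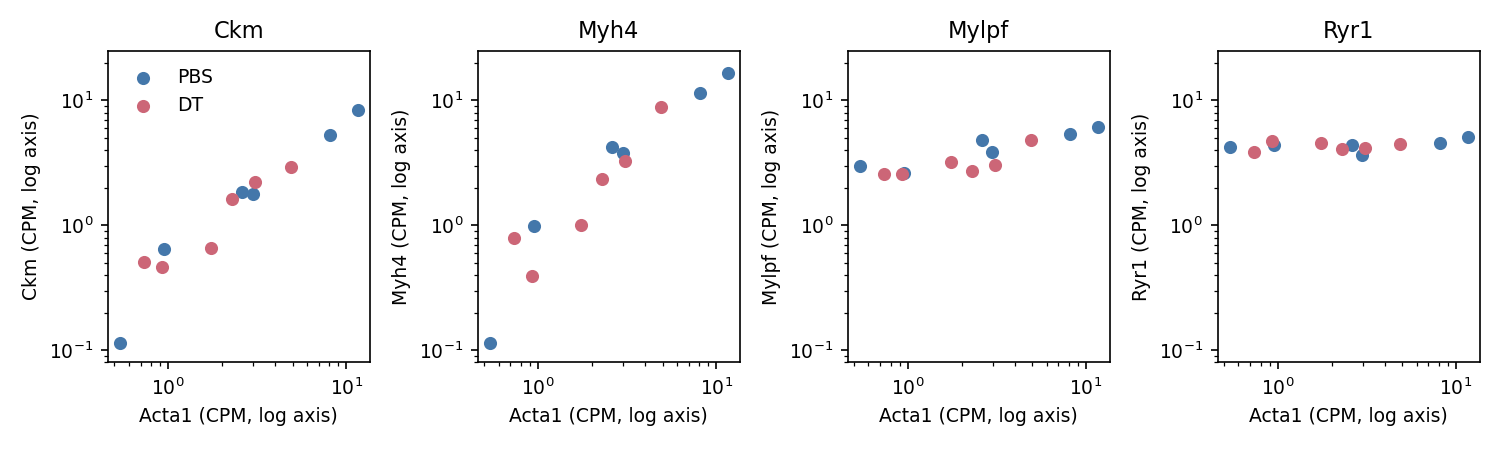
Levels of Ckm, Myh4, Mylpf and Ryr1 against Acta1 in the 12 samples (CPM, log axes), PBS in blue and DT in red. Ckm and Myh4 climb with Acta1, Mylpf climbs from a base of 2.56 CPM, and Ryr1 stays between 3.68 and 5.13 CPM.

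DT was compared with PBS to ask whether muscle RNA differed with the loss of Langerhans cells. Of the 19 tested genes, 0 passed by edgeR's quasi-likelihood test (adjusted p = 0.30 to 0.937), where 1.3% of the 14231 genes tested were called, 0.857% lower and 0.443% higher in DT. DESeq2 also called 0 of the 19. At an unadjusted p under 0.05 edgeR had 2 of the 19, Myh1 and Actn2, where 15.4% of all genes were under it. None of the 32 genes had groups that did not overlap, against 2.21% of all genes tested.

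Fold changes of the 19 were nonetheless on the negative side, with a median log2 fold change of -0.88 against 0.01 for all genes tested, of which 48.4% were negative. Because these genes varied together from sample to sample, the 19 values are not independent of each other. Myh1 had the lowest value, -1.52 ± 0.685 (SE; 95% interval -2.97 to -0.06; edgeR adjusted p = 0.30), with means of 3.05 ± 3.07 CPM in PBS and 1.01 ± 0.932 CPM in DT. Atp2a1 was at -1.43 (-3.00 to 0.15), Myh4 at -1.09 (-2.69 to 0.50), Ckm at -1.06 (-2.45 to 0.34) and Acta1 at -0.93 (-2.19 to 0.34). The intervals of the 14 swinging genes reached down to -3.00 and up to 0.81, and 2 of the 14 lay below 0 (Myh1 and Actn2).

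The genes with a base level were measured far more tightly. Ryr1 was at -0.02 (95% interval -0.22 to 0.17; edgeR adjusted p = 0.937) and Eno3 at -0.05 (-0.43 to 0.33; adjusted p = 0.935). Tnni1 was at -0.22 (-0.45 to 0.01; adjusted p = 0.340), Tnni2 at -0.30 (-0.91 to 0.32; adjusted p = 0.682) and Mylpf at -0.43 (-0.88 to 0.02; adjusted p = 0.349). Scaled by library size alone, Ryr1 and Eno3 turned positive, at 0.08 and 0.05.

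The median depended on which samples were in the fit. Without PBS 1 the median of the 19 was -0.30, with 16 negative. Without PBS 1, PBS 3 and DT 6, the 3 samples of highest summed level, 9 of 18 tested genes were negative and the median was -0.02 (a setting chosen after the data were seen). As these 3 were picked by the level of the same genes, 2 from PBS and 1 from DT, a smaller difference follows in part from the choice. Without DT 6 alone the median was -1.32, with 19 negative.

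**Figure D5:**
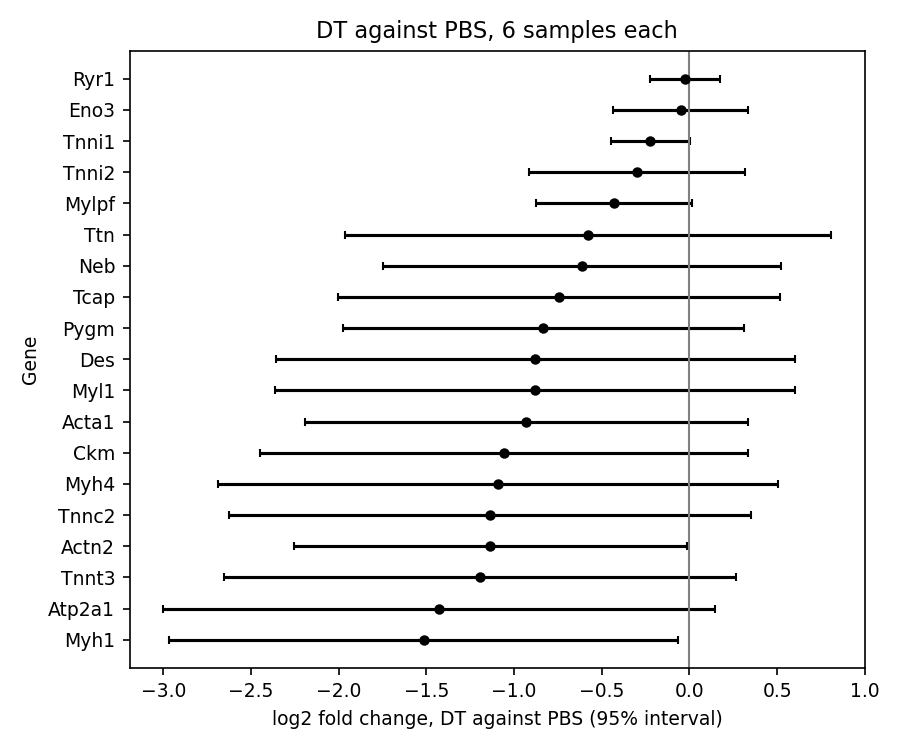
Points give the log2 fold change of DT against PBS for each of the 19 tested muscle genes, with 95% intervals from edgeR's quasi-likelihood fit over 6 and 6 samples. All points lie left of 0, and the intervals of Myh1 and Actn2 alone stay below it, with upper bounds of -0.06 and -0.01.

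The 13 genes too rare for the test had 6 to 122 counts each over the 12 samples. With no filter on low counts they were fitted too, with edgeR adjusted p of 0.0999 to 0.956. The smallest was that of Casq1, at -2.45, and Tnnc1 at 0.11 was the one positive value among the 32 in that fit.

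Other genes of the muscle fibre were listed by role. Of 40 further sarcomere genes 12 were tested and 0 called by edgeR (median log2 fold change -0.23), of 16 for calcium and excitation 8 were tested and 0 called (median -0.02), and of 10 of the sarcolemma 4 were tested and 0 called (median 0.00). Of 17 energy genes 9 were tested and 1 was lower in DT (median 0.03). That one was Fbp2, the muscle form of a gluconeogenic phosphatase, with a mean of 50.7 ± 4.30 CPM for PBS against 39.7 ± 2.26 CPM for DT (log2 fold change -0.35, edgeR adjusted p = 0.0164). Fbp2 had 1005 counts in PBS 1, where the muscle genes were highest, and 1551 in PBS 5, where they were lowest. These are raw counts, and a part of their difference is depth: PBS 1 had 21226436 counts in all and PBS 5 had 29298525. Tpm2 and Tnnt2, a tropomyosin and the cardiac troponin T, were abundant throughout, at 208 ± 24.8 and 18.5 ± 2.00 CPM in PBS and 181 ± 24.9 and 16.8 ± 4.13 CPM in DT (adjusted p = 0.322 and 0.681).

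Among the tested genes of these lists, 4 had an r over 0.9 with the 32. Mb, the oxygen store myoglobin, had a Pearson r of 0.969 with the log2 summed level over the 12 samples, Xirp2 0.963, Trdn, which holds the release channel, 0.939, and Hrc, a calcium-binding protein of the reticulum, 0.916. They are named as most alike and without a test, having been picked for it. Mb counts were 125, 52, 145, 45, 7 and 11 in PBS 1 to PBS 6 and 10, 37, 31, 28, 41 and 132 in DT 1 to DT 6. The high samples were again PBS 1, PBS 3 and DT 6. Genes too rare to test were not ranked, and some had the same high samples: Ckmt2, the creatine kinase of muscle mitochondria, had 44 counts in PBS 1, 47 in PBS 3, 37 in DT 6 and 0 in PBS 5, and Cox6a2, a respiratory chain subunit, 41, 28, 20 and 0 in the same order. Nrap, Fabp3, Pgam2 and Hspb7 had 13 to 30 counts in each of the first 3 and 0 to 2 in PBS 5. Of the 19 tested muscle genes, 16 had an r over 0.9 with the summed level, which holds these genes themselves, unlike Mb, Xirp2, Trdn and Hrc. With the gene itself left out of the sum, r was over 0.9 for all of the 19 but Eno3, Tnni1 and Ryr1.

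Genes of cells that lie around muscle fibres were in part rare and in part abundant. Of 12 genes of myogenic and satellite cells, 8 had under 10 counts over all samples, Myod1 and Myf5 among them, and 2 were tested with 0 called by edgeR. Pax7, the transcription factor of satellite cells, had 10 to 26 counts per sample, with 11 in PBS 1 and 10 in PBS 3, where the fibre genes were highest. Of 11 genes of the neuromuscular junction 4 were tested and 0 called. Chrnd, Chrne, Chrng and Colq had under 10 counts in all, and Lrp4, which epithelium also expresses, had means of 75.1 ± 4.42 CPM for PBS and 76.5 ± 6.65 CPM for DT. Smooth muscle and pericyte markers had 4 of 10 tested and 0 called. Their summed level, 299 to 363 CPM in PBS and 285 to 355 CPM in DT, was above that of the 32 muscle genes. Smtn and Notch3 made up most of it, at 146 ± 8.25 and 141 ± 17.1 CPM in PBS. Which cells Smtn and Notch3 came from was not tested, so the sum is not an amount of smooth muscle RNA. Myh11, Cnn1 and Actg2, contractile genes of smooth muscle, had 25, 12 and 21 counts over the 12 samples.

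Markers of other tissue under the epithelium showed values of their own. Of 10 fibroblast markers 7 were tested, 7 were negative and 0 were called by edgeR (median -0.60). Their summed level was nearly all Dcn. Dcn had a mean of 295 CPM for PBS and 289.8 CPM for DT (log2 fold change -0.03, edgeR adjusted p = 0.912). It had 100749 counts over the 12 samples, against 128 for Pdgfra, 84 for Dpt and 41 for Lum. Which cells Dcn came from was not tested, so its level is not a measure of fibroblasts. The collagens were rare, with Col1a1 at 0.929 CPM for PBS and 0.484 CPM for DT (-0.93, edgeR adjusted p = 0.181) and Col3a1 at 1.44 and 0.772 CPM (-0.89, adjusted p = 0.122). The 1 endothelial marker tested of 8 was Pecam1, at -0.67 (edgeR adjusted p = 0.203). It had 1961 counts over the 12 samples, and the untested markers had 3 to 93 each. Among the untested ones, mean CPM was higher in DT for Tek, Esam, Cdh5 and Kdr. For Egfl7, Emcn and Cldn5 it was lower, so Pecam1 does not stand for the list. Of 5 erythrocyte markers 5 were tested and 3 were lower in DT, Hba-a1, Hba-a2 and Hbb-bs (log2 fold change -1.03, -1.12 and -0.90, edgeR adjusted p = 0.0373, 0.0172 and 0.0472). The alpha-globin genes are near copies of each other, and reads may be split between them. Of 6 adipocyte markers 5 had under 10 counts in all, and of 7 Schwann cell markers 3 were tested and 0 called. The part of these cells in the muscle values was not tested.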

How the data were processed

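RNA of 12 tongue epithelium samples was analysed. The authors deposited 1 table with raw counts per gene and sample, which are whole reads and not normalized, and a normalized signal, in which each sample's counts are scaled by 1 DESeq2 factor. Factors worked out again from the counts were within 4.4e-14% of the deposited ones, and the signal had no other use. Per the submitters' processing notes, cutadapt 2.10, TopHat2 2.1.1, HTSeq 2.01 and DESeq2 1.36.0 were used with build GRCm39; the sources used here do not give the annotation or strand setting. Of 55414 genes, 6250 had blank counts and were left out, and 0 columns belonged to no sample. The library kit is stranded per the labels' protocols. Of the 32 muscle genes, 16 overlap a gene of the other strand in GENCODE M21, so that such reads may be shared.

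Groups and replicate numbers came from the sample titles. Counts were filtered by filterByExpr (minimum count 10), scaled by TMM and tested with edgeR 4.0.16 in R 4.3.3 (quasi-likelihood F test, two-sided, Benjamini-Hochberg over 14231 genes, threshold 0.05). Adjusted p-values are over all genes tested. DESeq2 1.42.0 was an alternative. SE is the size of the log2 fold change over the square root of F, and 95% intervals follow from it. Correlations used log2 (CPM + 0.5) and scipy 1.17.1. Exon lengths are the union of exons in GENCODE M21. The fit was tested on simulated counts with known changes. Replicates of a group differed by a chi-square of 6.81 to 61.7 for each degree of freedom, so no library was a sequencing repeat of another in its group. Pairs across the groups were not compared in this way. The labels do not say that samples are separate mice; otherwise p-values measure only the spread between samples.

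The genes, lists and pairs were chosen with earlier results of these data known. All 32 genes were to be named, with called members and up to 2 of the most abundant of the other lists; Mb, Xirp2, Trdn, Hrc and the rare genes were named after their values were seen. A result on 1 further gene is not reported here.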

Additional observations from a re-analysis of the deposited data

Results flagged for a closer look

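Within each group of 6, the highest or lowest sample was compared with its neighbour for each of the 32 genes and their sum, 66 groups in all. Chance alone would single out about 1 in 20 if levels followed a normal distribution. The levels in CPM are skewed and some counts are near 0, so an excess over chance cannot be read from the number. Single samples stood apart in 9. DT 6 was far above the other DT samples for Myh4 (8.86 CPM against 0.391 to 3.28), Mylpf (4.82 against 2.56 to 3.22), Myl1 (2.79 against 0.285 to 1.22), Mybpc1 (0.677 against 0.0775 to 0.239), Cacna1s (0.163 CPM, 6 counts) and Tnnt1 (0.0542 CPM, 2 counts against 0 in the others). PBS 1 was far above the other PBS samples for Myoz1 (0.761 CPM against 0.0439 to 0.227), and PBS 3 for Actn3 (0.340 CPM, 9 counts). Casq1 was at 0.0 CPM in DT 4, where the other DT samples had 1 count each. As these genes vary together, the flags of DT 6 are not independent of each other.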

How the results depend on the processing

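Counts of members called were 0 under each setting tried: other scalings, DESeq2, no low-count filter, the replicate number as a block, and without each sample in turn. The summed level kept its sign, with a log2 ratio of -1.04 to -0.34 without each sample in turn. Over all genes, the 185 calls became 553 with library size alone, 596 with DESeq2 and 8 with the replicate block. Library size alone moved the median log2 fold change of all genes to 0.11. It moved the share of the calls that were higher in DT from 34.1 to 87.5%, against 47.9% with upper quartile scaling. Leaving out single samples gave 46 to 263 calls. The PBS group gave 97 (sample 1 left out), 56 (2), 67 (3), 115 (4), 142 (5) and 176 (6). The DT group gave 263 (1), 102 (2), 72 (3), 77 (4), 46 (5) and 114 (6). Without PBS 1, PBS 3 and DT 6 together 5 were called, on 4 and 5 samples, and with the summed muscle level as a covariate 305, of which 175 were among the 185; both settings were chosen after the data were seen, and the cause was not tested.

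Of 360 fold changes of single members under these settings, 16 changed sign and 0 passed the threshold. These leave out the fit with the covariate, which is the members' own sum. In that fit 4 of the 19 were negative and their median was 0.13. With library size alone, Ryr1 was at 0.078 and Eno3 at 0.053. Without each sample in turn, Ttn ran from -1.03 to 0.021, Ryr1 from -0.064 to 0.021 and Eno3 from -0.139 to 0.116, with the highest value of each without PBS 1. Eno3 was also positive without PBS 3 (0.036) and Ryr1 without DT 4 (0.0065). Without the 3 samples of highest muscle level, Acta1, Ckm, Tnni2, Ttn and Ryr1 were at 0.0052, 0.0070, 0.026, 0.235 and 0.035, and Eno3, Pygm, Tcap and Des at 0.25, 0.058, 0.195 and 0.016. The replicate numbers did not pair the samples: same-numbered samples deviated from their group means with correlations of -0.41 to 0.12, 1 of 6 over 0.1, and 1 of 6 PBS samples correlated best with its own number. Depth limits the 13 untested genes, which had 6 to 122 counts each over the 12 samples.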

Other observations

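Among genes outside all lists, Lpl, the lipoprotein lipase that muscle and fat use to take up fatty acids, was one of those most like the muscle genes, with a Pearson r of 0.886 with the log2 summed level over the 12 samples. It had 34 counts in PBS 1, 39 in PBS 3 and 40 in DT 6, against 5 in PBS 5 (log2 fold change -0.21, edgeR adjusted p = 0.879). Zfp791, Gm20544, Phf20l1, Tmem30a, Zfp931 and Exo5 had r of 0.861 to 0.885. Phf20l1 and Tmem30a among them were far more abundant, at 62.0 and 123 CPM in PBS and 60.1 and 115 CPM in DT. As these genes were picked for their likeness, no test of it is given.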
